A study of Mus musculus with 18 samples.

Results

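The DNA replication machinery genes are 44 named genes whose proteins mark, open, unwind and copy chromosomal DNA and supply its nucleotides. They were taken by name from the deposited array values, with 1 gene symbol per probe set and the probe set of highest mean signal for each gene. Of the 44 genes, 43 were measured, among 22180 measured genes in all. Rfc4, a subunit of the clamp loader, was represented only by a probe set shared with other genes and was not analysed here. No gene was left out for a low value, and the mean signal of all 43 genes was at or above 5.766, the median of the gene means.

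The arrays held total RNA of C57BL/6 mouse embryonic stem cells differentiating as embryoid bodies, suspended clusters of cells that lose their pluripotent state as they grow. Before differentiation all cells were kept in a medium with LIF, BMP-4 and an inhibitor of GSK3b. From day 3 of the embryoid body stage the cultures received thalidomide at 0.25 mM, or served as controls, and RNA was taken at 24, 48 and 72 h. The 6 groups were thalidomide and control cultures at each of these times, with 3 arrays per group that the labels call biological replicates, and no group carried a transgene or an engineered allele by the labels. Thalidomide is a human teratogen that binds cereblon, a substrate receptor of a ubiquitin ligase. The treatment protocol gives the control as the vehicle, 0.25% DMSO, whereas the series design calls the controls unexposed, and their source names count hours after embryoid body formation. Titles of the 9 control arrays and of the 3 thalidomide arrays of 24 h carry a tag for re-analysis. The 6 thalidomide arrays of 48 h and 72 h lack it, so tag and exposure cannot be told apart at 48 h and 72 h. In thalidomide cultures the tag also cannot be told apart from time between 24 h and 48 h or 72 h. Nor can it be told apart from a difference between the effect at 24 h and that at 48 h or 72 h. Control arrays carry the tag at every time.

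Each replication origin is first bound by the origin recognition complex, ORC, which loads the ring of MCM2 to MCM7 with the help of Cdc6 and Cdt1, a step that geminin (Gmnn) restrains. In S phase the kinase Cdc7 and cyclin-dependent kinases convert the loaded ring into the active helicase by adding Cdc45 and the 4 GINS subunits, with Mcm10 needed for its start. Polymerase alpha and its primase then lay primers, polymerases epsilon and delta extend them on the sliding clamp PCNA, Fen1 and Lig1 join the lagging strand, RPA covers single strands and ribonucleotide reductase makes deoxynucleotides. Embryonic stem cells are known for a short G1 phase and a large share of cells in S phase.

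The values are log2 signals, and a change of 1 unit is a doubling. The deposited arrays were normalized to nearly equal distributions, so each change is relative to the other genes of an array, and in whole embryoid bodies fewer cells that copy DNA and less RNA per cell cannot be told apart. Arrays of the same group had correlations of 0.992 to 0.996 over all genes. Changes are thalidomide minus control from limma, ± SE, and a gene passed at an adjusted p under 0.05 over all 22180 genes. Whether the replicates came from separate cultures is not stated beyond the word biological, so p-values measure the spread between these samples. As a check of the cell type, 4 of 8 pluripotency genes fell between 24 h and 72 h in thalidomide cultures (Pou5f1, Nanog, Klf4 and Tdgf1) and 5 in control cultures (these and Zfp42), Sox2 rose in both, and 6 of 7 heart muscle genes rose in both. Thalidomide replicate 3 of 72 h stood apart in such markers: the heart actin gene Actc1 read 8.73, 8.28 and 6.95 in thalidomide arrays and 9.46, 9.40 and 9.46 in control arrays at 72 h, and the endothelial receptor gene Tek 6.97, 6.93 and 5.74 in thalidomide arrays and 7.27, 7.20 and 7.48 in control arrays. Counts of passing genes are given with and without it at 72 h and for the thalidomide course from 24 h to 72 h. The same holds for the effect at 72 h minus that at 24 h. Counts between 48 h and 72 h, unadjusted counts, non-overlap counts and marker sums that use this array are given only with it.

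At 24 h, 6 of the 43 replication genes fell under thalidomide (14.0%) and 0 rose, while 5.43% of all genes fell and 1.42% rose. The genes that fell were Gins1, Gins2, Gins4, Cdc45 and Mcm10, which act at the helicase, and the primase subunit gene Prim1, with folds from 1.16 to 1.47. At 48 h, 5 genes fell (11.6%, against 4.23% of all genes), namely Gins1, Gins2, Gins4, Prim1 and the origin recognition gene Orc1, and Lig1, the ligase gene, rose (against 1.85% of all genes that rose). Without 1 array of the groups compared, the count at 24 h fell to 2 (without thalidomide replicate 1) or 3 (without control replicate 1 or 3), and the count of 6 at 48 h fell to 2 (without thalidomide replicate 3) or 3 (without thalidomide replicate 2 or control replicate 1, 2 or 3). At 72 h none of the 43 passed limma's test, the smallest adjusted p was 0.696, and 0 genes had an unadjusted p under 0.05, as 9.12% of all genes did. Over all genes 0.00902% passed at 72 h. Without thalidomide replicate 3 of 72 h the count at 72 h was also 0, and the median 0.002. The median log2 change of the 43 genes was -0.103 at 24 h, -0.061 at 48 h and 0.014 at 72 h, against -0.006, 0.005 and 0.003 for all genes. For the 25% of genes with the highest mean signal it was -0.075, -0.058 and -0.02. In the mean of the 3 effects, 6 genes fell (Mcm7, Gins1, Gins2, Gins4, Cdc45 and Prim1, against 9.1% of all genes) and 2 rose (Pold1 and Lig1, against 3.93% of all genes). The mean calls of Gins1, Gins2, Gins4, Prim1 and Lig1 held without any 1 array, while Cdc45, Mcm7 and Pold1 lost theirs in 10, 15 and 9 of 18 such fits. The share of genes that fell depended on signal: in the 25% of genes with the highest mean signal, which held 38 of the 43, it was 13.3% at 24 h and 9.41% at 48 h, so the 14.0% and 11.6% of the replication genes lay near that of genes of similar signal. After cyclic loess normalization the medians were -0.016 and -0.014, 2 genes fell at 24 h (Gins1 and Prim1, with Lig1 higher) and 4 fell at 48 h (Gins1, Gins2, Gins4 and Prim1, with Lig1 and Pold1 higher), where 2.7% and 2.73% of all genes fell.

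**Figure D1:**
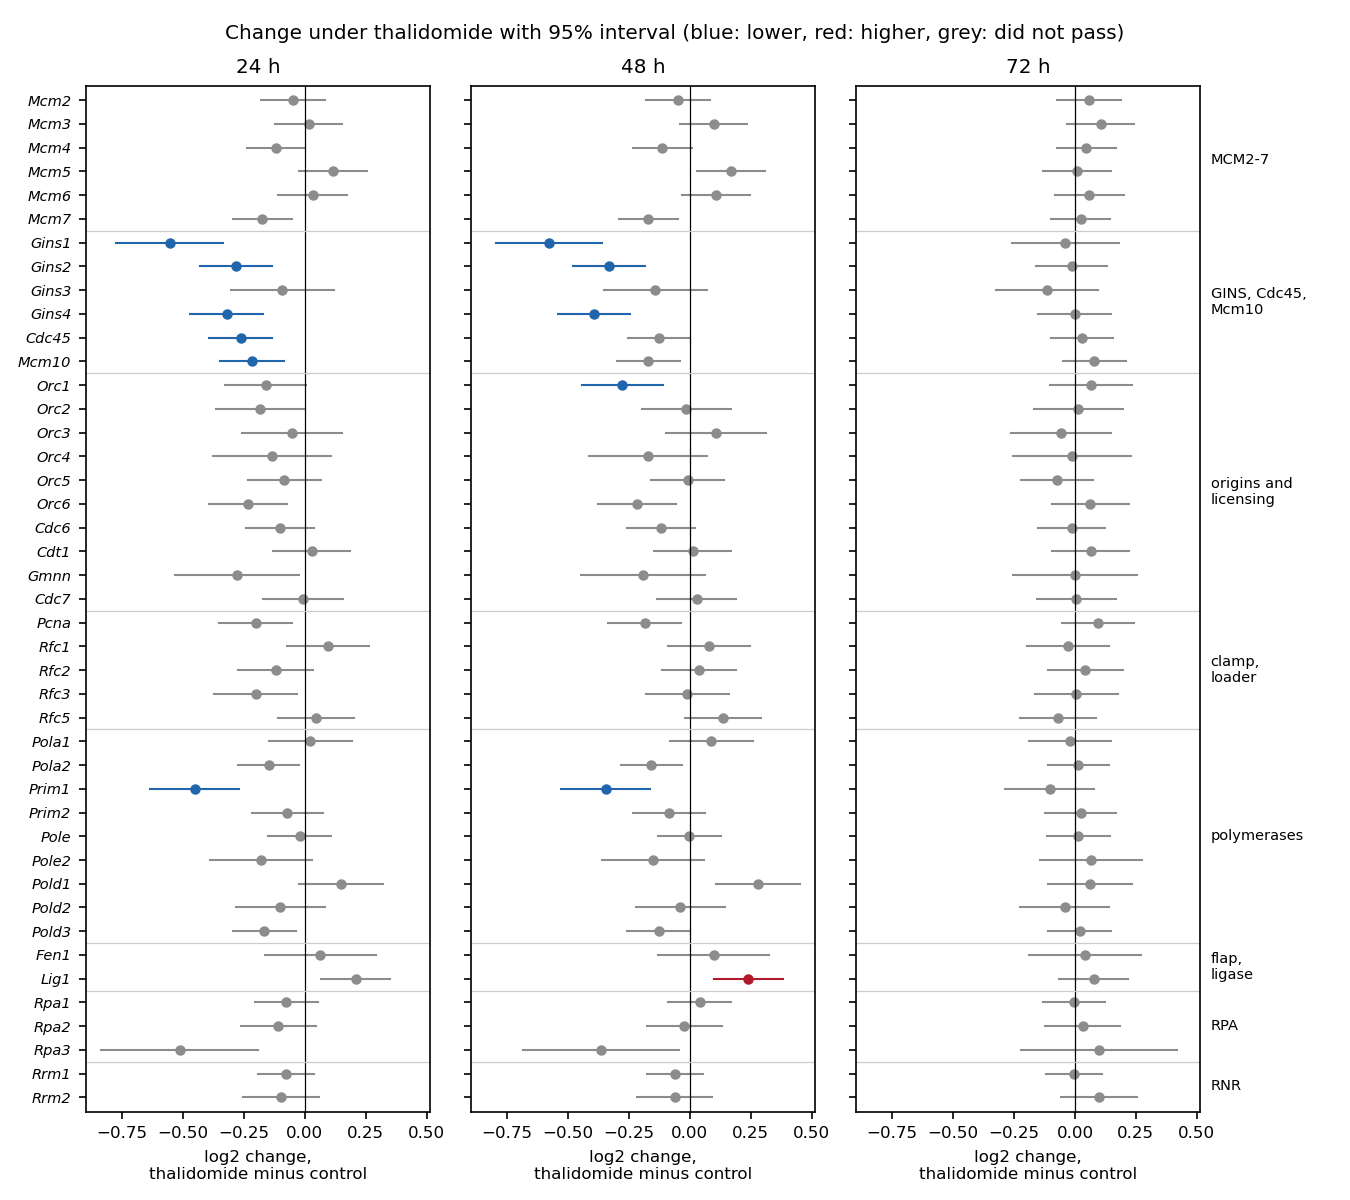
Log2 change under thalidomide (thalidomide minus control, horizontal axis) of the 43 replication genes at 24, 48 and 72 h, with 95% intervals and 3 arrays per group. Blue genes fell, red genes rose and grey genes did not pass. The 6 blue genes at 24 h and the 5 at 48 h are Gins1, Gins2, Gins4, Prim1, Cdc45, Mcm10 and Orc1, and at 72 h every estimate lies between -0.12 and 0.11.

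The changes of the 43 genes at 24 h and 48 h, which rest on different arrays, correlated across genes at r = 0.92 (n = 43 genes, which are not independent replicates), and 39 had the same sign. Over all 22180 genes the correlation was 0.49 and 67.0% had the same sign. Between 24 h and 72 h, r was 0.11 for the 43 genes and 0.09 for all genes. All 3 thalidomide arrays lay below all 3 control arrays for 18 of the 43 genes at 24 h (41.9%, against 15.9% of all genes) and for 18 at 48 h (41.9%, against 16.9%). All 3 lay above the controls for 2 genes at 24 h (Mcm5 and Lig1, where 9.23% of all genes did so) and 7 at 48 h (Mcm3, Mcm5, Mcm6, Rfc1, Pold1, Lig1 and Rpa1, where 12.3% did so). At 72 h 0 genes lay wholly below (7.51% of all genes did) and 1, Orc6, wholly above (7.27% did). Correlations, shares of the same sign and shares without overlap were not computed for genes of similar signal. Falls under thalidomide at 24 h and 48 h were more frequent among genes of high signal, as given above.

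**Figure D2:**
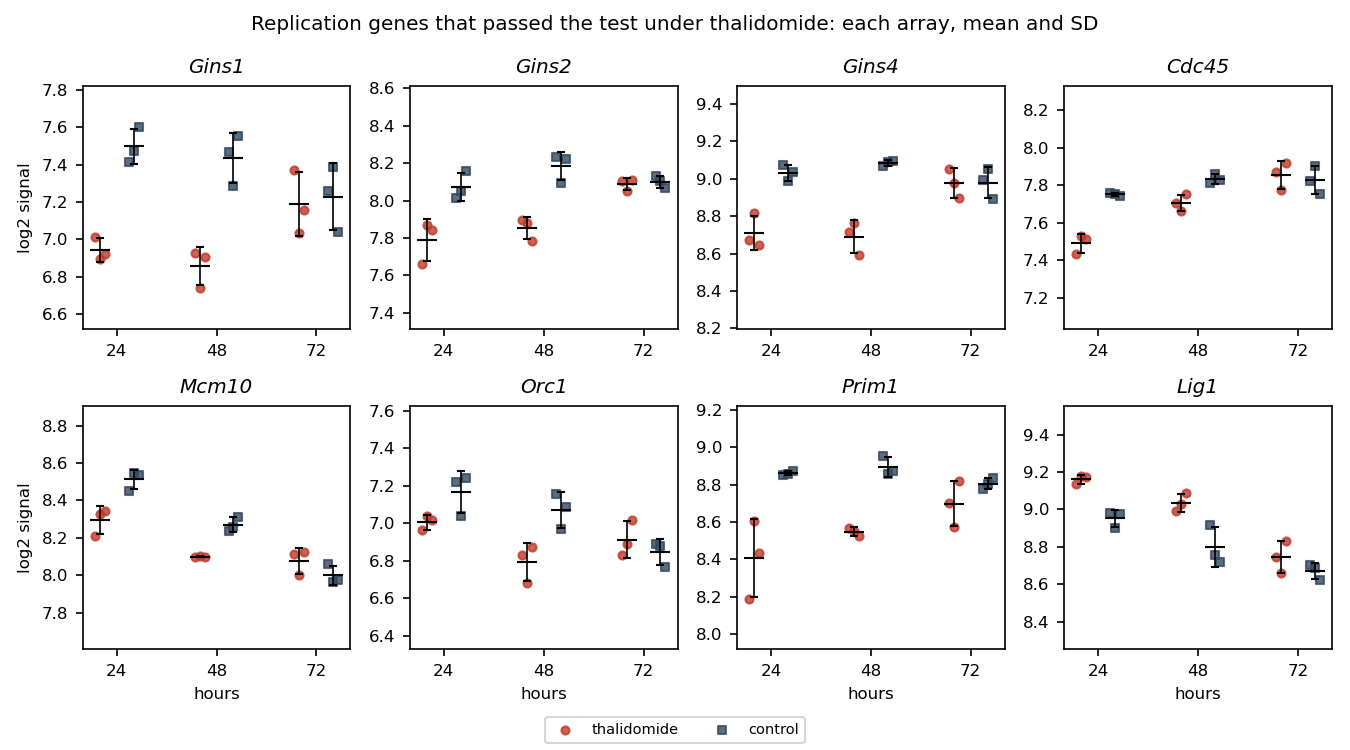
Log2 signal (vertical axis) of each array for the 8 genes that passed the test at 24 h or 48 h, by hours (horizontal axis), with thalidomide as red circles left of control as dark squares. Bars are the mean and SD of 3 arrays. At 24 h and 48 h the thalidomide points of Gins1, Gins4 and Prim1 all lie below the control points, and at 72 h they overlap.

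Promoter windows were searched for the letters of 3 known cell cycle motifs. RefSeq windows (assembly GRCm38.p6, 250 bases before to 50 after the gene start) were found for 35 of the 43 genes. No window was matched for Mcm4, Gins1, Gins2, Gins4, Gmnn, Rfc2, Prim2 and Pole. E2F factors drive many S phase genes, and their motif was searched on both strands as TTTCCCGC, TTTCGCGC, TTTGCCGC and TTTGGCGC. It was present in 14 of 35 windows (40.0%): Mcm3, Mcm5, Mcm6, Mcm7, Gins3, Orc1, Orc3, Cdc6, Cdt1, Rfc3, Pola1, Pole2, Pold1 and Pold3. Of 27025 promoters in all, 2.32% held it, and of the measured genes in the 25% with the highest signal 5.39%. The CCAAT box, letters CCAAT on both strands, was in 22 of 35 windows (62.9%, against 37.9% of all promoters), and TTTGAA, the CHR element of cell cycle genes, in 5 (14.3%, against 18.1%). Of the measured genes in the 25% with the highest signal, 40.1% held CCAAT and 12.3% TTTGAA. Of the 4 windows of genes that fell at 24 h or 48 h (Cdc45, Mcm10, Orc1 and Prim1), 1 held the E2F letters (Orc1) and all 4 held CCAAT. E2F matches overlapped each other in Mcm5 and Mcm6, and 1 overlapped a CCAAT box in Mcm7. A match is a description of letters, not evidence of binding. The lines show, on each gene's own strand, the 250 bases before the start of Mcm7, Orc1 and Mcm5, which hold the motif and are among the 4 genes with it whose mean change over the 3 times had the smallest p. Pold1, the other one, holds it after its start, so bases 21 to 50 are shown. Pcna has no E2F match in its window, and Prim1, the only gene shown here that fell at both 24 h and 48 h, was added after its values were seen. Capitals mark E2F matches, and a further match of Mcm7 begins at base 17 after its start.
Mcm7 (chr5:138171884-138172133, minus strand): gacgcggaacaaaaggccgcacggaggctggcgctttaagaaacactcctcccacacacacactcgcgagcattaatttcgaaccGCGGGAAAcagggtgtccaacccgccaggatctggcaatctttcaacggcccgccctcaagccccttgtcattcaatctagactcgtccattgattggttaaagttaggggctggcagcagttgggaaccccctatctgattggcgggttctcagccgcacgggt
Orc1 (chr4:108579204-108579453, plus strand): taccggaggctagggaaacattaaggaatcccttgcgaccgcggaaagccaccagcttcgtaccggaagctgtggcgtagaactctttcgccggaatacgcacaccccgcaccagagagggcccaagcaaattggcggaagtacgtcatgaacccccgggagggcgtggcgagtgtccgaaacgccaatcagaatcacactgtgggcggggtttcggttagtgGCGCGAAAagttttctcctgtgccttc
Mcm5 (chr8:75109259-75109508, plus strand): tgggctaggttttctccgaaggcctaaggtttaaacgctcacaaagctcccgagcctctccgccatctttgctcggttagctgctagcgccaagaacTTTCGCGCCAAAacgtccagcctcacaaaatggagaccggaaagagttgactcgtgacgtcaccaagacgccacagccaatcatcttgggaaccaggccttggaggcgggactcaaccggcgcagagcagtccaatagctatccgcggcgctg
Pold1 (chr7:44548766-44548795, minus strand): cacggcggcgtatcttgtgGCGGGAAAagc
Pcna (chr2:132253181-132253430, minus strand): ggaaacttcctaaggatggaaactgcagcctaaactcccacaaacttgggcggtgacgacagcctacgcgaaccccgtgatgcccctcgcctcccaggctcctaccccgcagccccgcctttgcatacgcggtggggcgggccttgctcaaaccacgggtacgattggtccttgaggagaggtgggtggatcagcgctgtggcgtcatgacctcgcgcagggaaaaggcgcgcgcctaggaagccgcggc
Prim1 (chr10:128014965-128015214, plus strand): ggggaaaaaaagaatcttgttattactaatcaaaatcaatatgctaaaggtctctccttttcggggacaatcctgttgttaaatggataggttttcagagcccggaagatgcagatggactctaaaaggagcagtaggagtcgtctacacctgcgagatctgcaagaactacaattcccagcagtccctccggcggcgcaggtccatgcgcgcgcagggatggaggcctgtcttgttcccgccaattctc

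Among the 10 genes of origin recognition and licensing, 0 passed at 24 h and 1, Orc1, at 48 h, and the median log2 change was -0.118 at 24 h and -0.067 at 48 h (-0.028 and 0.002 after cyclic loess, so the sign at 48 h flipped). Orc1 encodes the largest ORC subunit, which recruits Cdc6. Its log2 signal at 48 h was 6.83, 6.68 and 6.87 in thalidomide arrays, against 7.16, 6.97 and 7.09 in control arrays. The highest thalidomide array lay below the lowest control array. Orc1 fell by 0.28 ± 0.08 on the log2 scale at 48 h (SE, n = 3 arrays per group, limma adjusted p = 0.0489). This call stood close to the threshold: it was lost in 15 of 18 fits that left out 1 array, with adjusted p up to 0.183 without thalidomide replicate 2 of 48 h, and after cyclic loess (adjusted p = 0.124). The upstream window of Orc1 is the one printed above with the E2F letters 27 bases before the start. At 24 h Orc1 had a change of -0.16 ± 0.08, and at 72 h of 0.07 ± 0.08 (adjusted p = 0.26 and 0.889), and its arrays overlapped at both times.

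Orc6, a small subunit that completes ORC, did not pass at any time. At 24 h it measured 8.96, 9.19 and 9.22 in thalidomide arrays and 9.42, 9.26 and 9.37 in control arrays, all thalidomide arrays being lower, with a change of -0.23 ± 0.08 (limma adjusted p = 0.0777). At 48 h the change was -0.22 ± 0.08 (adjusted p = 0.095), again without overlap. At 72 h the thalidomide arrays read 9.27, 9.26 and 9.35, against 9.24, 9.20 and 9.25 in control arrays, and lay wholly above, by 0.06 ± 0.08 (adjusted p = 0.886). The difference between the effects at 72 h and 24 h, 0.30 ± 0.11, did not pass (adjusted p = 0.204). The other 8 genes were Orc2, Orc3, Orc4 and Orc5, the loader genes Cdc6 and Cdt1, the Cdt1 inhibitor gene Gmnn and the kinase gene Cdc7. Their 24 h changes ran from -0.28 for Gmnn to 0.03 for Cdt1, and none passed. At 48 h all thalidomide arrays lay below the controls for Cdc6 and Orc4, with changes of -0.12 ± 0.07 and -0.17 ± 0.11.

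None of the 6 subunits of the MCM2 to MCM7 ring, the motor of the helicase, passed at 24 h or 48 h: 3 of the 6 changes were below 0 at each time, and the medians were -0.016 and 0.024 (0.059 and 0.069 after cyclic loess). The estimates ran from -0.17 (Mcm7) to 0.12 (Mcm5) at 24 h and from -0.17 to 0.17 for the same genes at 48 h. Mcm7 measured 9.89, 9.83 and 9.87 in thalidomide arrays, against 10.01, 10.10 and 10.01 in control arrays at 24 h, and 9.84, 9.92 and 9.92 in thalidomide arrays, against 10.10, 10.04 and 10.05 in control arrays, at 48 h. Thalidomide arrays were the lower at both times, without overlap, but of the exposure comparisons the gene passed limma only in the mean over the 3 times, where it fell by 0.11 ± 0.03 (adjusted p = 0.0412, against 0.0786 at 24 h and 0.0839 at 48 h). That call was lost in 15 of 18 fits that left out 1 array, with adjusted p up to 0.079, and after cyclic loess (adjusted p = 0.194). Mcm7 also has 2 probe sets shared with other genes, which were not used.

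Mcm5 went the other way. Its thalidomide arrays read 10.24, 10.16 and 10.11 at 24 h, against 10.03, 10.07 and 10.06 in control arrays, and 10.08, 10.07 and 10.16 in thalidomide arrays at 48 h, against 9.97, 9.89 and 9.93 in control arrays. They lay above the controls at both times, with changes of 0.12 ± 0.07 and 0.17 ± 0.07 that did not pass (limma adjusted p = 0.326 and 0.129). Both genes carry E2F letters in the windows printed above. Mcm2, Mcm3, Mcm4 and Mcm6 had changes between -0.12 and 0.11 at 24 h and 48 h. Mcm4 lay below its controls at both times without overlap (-0.12 ± 0.06 and -0.11 ± 0.06, adjusted p = 0.246 and 0.244). At 72 h all 6 estimates were above 0, between 0.01 and 0.11, and all arrays overlapped. Mcm3 had the smallest p of the 43 genes at 72 h. It read 9.42, 9.24 and 9.38 in thalidomide arrays and 9.32, 9.26 and 9.14 in control arrays, a difference of 0.11 ± 0.07 (adjusted p = 0.696).

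Of the 6 genes that turn the loaded ring into a working helicase (GINS, Cdc45 and Mcm10), 5 fell at 24 h and 3 at 48 h, with median log2 changes of -0.273 and -0.251. After cyclic loess 1 of the 6 fell at 24 h (Gins1) and 3 at 48 h (Gins1, Gins2 and Gins4), with a median of -0.178 at both times. Whether the group differed from the other members was not tested. GINS is a complex of 4 proteins that joins MCM2 to MCM7 and Cdc45. Gins1 encodes its subunit PSF1 and had the largest fall of the 43 genes at 24 h and 48 h. At 24 h its log2 signal was 7.01, 6.89 and 6.92 in thalidomide arrays, against 7.42, 7.48 and 7.60 in control arrays. The highest thalidomide array was 7.01 and the lowest control array 7.42, so the groups did not overlap. Gins1 fell by 0.55 ± 0.10 at 24 h, or 1.47-fold (limma adjusted p = 0.00514). At 48 h thalidomide arrays read 6.93, 6.74 and 6.91, against 7.47, 7.29 and 7.55 in control arrays, a fall by 0.58 ± 0.10, or 1.49-fold (adjusted p = 0.0051). At 72 h the signals were 7.37, 7.04 and 7.16 in thalidomide arrays and 7.26, 7.39 and 7.04 in control arrays. They overlapped fully, with a difference of -0.04 (95% interval -0.26 to 0.18, adjusted p = 0.957). The 24 h and 48 h calls of Gins1 held in all 7 other settings and in all 18 fits that left out 1 array.

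Gins4, which encodes the subunit SLD5, measured 8.67, 8.82 and 8.65 in thalidomide arrays and 9.07, 8.99 and 9.04 in control arrays at 24 h. It fell by 0.32 ± 0.07 (limma adjusted p = 0.0124). At 48 h it measured 8.71, 8.77 and 8.59 in thalidomide arrays, against 9.07, 9.09 and 9.10 in control arrays, and fell by 0.39 ± 0.07 (adjusted p = 0.00503). The control arrays of 48 h lay within 9.07 to 9.10, well above the thalidomide arrays. At 72 h the arrays overlapped, with means of 8.98 ± 0.08 under thalidomide and 8.98 ± 0.08 in control (SD, n = 3). The 24 h call of Gins4 was lost without control replicate 1 or thalidomide replicate 1 of 24 h (adjusted p = 0.0549 and 0.0521) and after cyclic loess (adjusted p = 0.0566).

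Gins2, the gene of subunit PSF2, read 7.66, 7.87 and 7.84 in thalidomide arrays, against 8.01, 8.05 and 8.16 in control arrays at 24 h, and fell by 0.28 ± 0.07 (limma adjusted p = 0.022). At 48 h the values were 7.90, 7.88 and 7.78 under thalidomide and 8.24, 8.10 and 8.22 in control, a fall by 0.33 ± 0.07 (adjusted p = 0.0118). Neither time showed overlap, and at 72 h the difference was -0.01 ± 0.07. The 24 h call was lost without control replicate 3 or thalidomide replicate 1 of 24 h (adjusted p = 0.108 and 0.104) and after cyclic loess (adjusted p = 0.0815). The 48 h call was lost without control replicate 1 or thalidomide replicate 3 of 48 h (adjusted p = 0.051 and 0.054). Gins3, the gene of the last subunit PSF3, did not pass: its changes were -0.09 ± 0.10 at 24 h, with overlap, -0.14 ± 0.10 at 48 h, without overlap, and -0.12 ± 0.10 at 72 h. Its 95% interval at 24 h, -0.30 to 0.12, includes the 24 h estimate of Gins2, and the difference between the subunits was not tested.

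Cdc45 encodes the protein that completes the active helicase together with GINS. At 24 h its arrays read 7.43, 7.53 and 7.51 under thalidomide, against 7.76, 7.76 and 7.74 in control. The control arrays spanned only 7.74 to 7.76, and all thalidomide arrays were lower. Cdc45 fell by 0.26 ± 0.06 at 24 h (limma adjusted p = 0.0172). At 48 h the change was -0.13 ± 0.06 and did not pass (adjusted p = 0.223), and at 72 h it was 0.03 ± 0.06. Without control replicate 1 or 3 or thalidomide replicate 1 of 24 h the Cdc45 call was lost (adjusted p = 0.0585, 0.0572 and 0.0715), as it was after cyclic loess (adjusted p = 0.107). In the mean over the 3 times Cdc45 fell by 0.12 ± 0.04 (adjusted p = 0.0341), a call lost after cyclic loess (change -0.05, adjusted p = 0.33). Mcm10, a factor needed to start unwinding, read 8.21, 8.33 and 8.35 in thalidomide arrays and 8.45, 8.55 and 8.54 in control arrays at 24 h and fell by 0.22 ± 0.06 (adjusted p = 0.0432). Its 24 h call was lost in 15 of 18 fits that left out 1 array, with the highest adjusted p, 0.164, without thalidomide replicate 1 of 24 h, and after cyclic loess (adjusted p = 0.238). At 48 h its change was -0.17 ± 0.06 (adjusted p = 0.108), without overlap, and at 72 h 0.08 ± 0.06, with overlap.

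Of the 9 measured genes of polymerases alpha, epsilon and delta, 1 fell at 24 h and at 48 h, Prim1, and the medians were -0.101 and -0.085 (-0.011 and -0.027 after cyclic loess). Prim1 encodes the catalytic subunit of primase, which makes the RNA primers. At 24 h its thalidomide arrays read 8.19, 8.61 and 8.43, against 8.85, 8.86 and 8.87 in control arrays. The thalidomide arrays were spread over 8.19 to 8.61 and the control arrays over 8.85 to 8.87. Prim1 fell by 0.45 ± 0.09, or 1.37-fold (limma adjusted p = 0.00596). At 48 h it read 8.57, 8.55 and 8.52 in thalidomide arrays and 8.96, 8.86 and 8.87 in control arrays and fell by 0.35 ± 0.09 (adjusted p = 0.0283). At 72 h the arrays overlapped and the difference was -0.10 (95% interval -0.29 to 0.08). The 24 h call held after cyclic loess and in all 18 fits that left out 1 array. The 48 h call was lost without control replicate 1, 2 or 3 or thalidomide replicate 2 or 3 of 48 h (adjusted p = 0.0969, 0.0579, 0.0695, 0.0809 and 0.0808). The promoter of Prim1 printed above has no E2F match and a CCAAT box.

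The partner of Prim1 in primase, Prim2, which guides primer length, had changes of -0.07 ± 0.07 at 24 h and -0.09 ± 0.07 at 48 h and did not pass (limma adjusted p = 0.615 and 0.49). Pola1, the catalytic subunit of polymerase alpha, had changes of 0.02 ± 0.08 and 0.09 ± 0.08, with overlap. Pola2, its accessory subunit, read 9.09, 9.08 and 9.15 in thalidomide arrays, against 9.24, 9.27 and 9.25 in control arrays at 24 h, and 9.16, 9.14 and 9.10 in thalidomide arrays, against 9.30, 9.24 and 9.33 in control arrays, at 48 h. It lay below the controls without overlap at both times, with changes of -0.15 ± 0.06 and -0.16 ± 0.06 (adjusted p = 0.156 and 0.117). Pold1, the catalytic subunit of polymerase delta, was on the other side: at 48 h thalidomide arrays read 8.26, 8.18 and 8.46, against 8.04, 7.95 and 8.07 in control arrays. Its change at 48 h was 0.28 ± 0.08 (adjusted p = 0.0528), and it passed in the mean over the 3 times, where it rose by 0.16 ± 0.05 (adjusted p = 0.0319, lost in 9 of 18 fits that left out 1 array, up to 0.0641). Pold3, a delta subunit, had -0.17 ± 0.06 at 24 h and -0.13 ± 0.06 at 48 h, both without overlap (adjusted p = 0.122 and 0.223). Pole2, Pole and Pold2 overlapped at every time, with 24 h changes of -0.18, -0.02 and -0.10.

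The sliding clamp and its loader did not pass at any time. Pcna, the ring that holds the polymerases on DNA, read 10.79, 10.91 and 10.84 in thalidomide arrays, against 11.10, 10.95 and 11.09 in control arrays at 24 h. All thalidomide arrays were lower, by 0.20 ± 0.07 on average (limma adjusted p = 0.101), and at 48 h the change was -0.19 ± 0.07 (adjusted p = 0.124), again without overlap. At 72 h its values were 10.92, 10.83 and 10.82 in thalidomide arrays and 10.82, 10.84 and 10.63 in control arrays, a difference of 0.10 ± 0.07 with overlap. The loader subunits Rfc1, Rfc2, Rfc3 and Rfc5 had changes of 0.10, -0.12, -0.20 and 0.05 at 24 h. Rfc2 and Rfc3 lay below their controls without overlap at 24 h, and Rfc1 lay above its controls at 48 h, by 0.08 ± 0.08.

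Lig1, the ligase that seals Okazaki fragments, was the only one of the 43 genes that rose in a single exposure comparison. At 48 h its arrays read 8.99, 9.03 and 9.09 under thalidomide, against 8.92, 8.76 and 8.72 in control. The lowest thalidomide array was at 8.99 and the highest control array at 8.92, so the groups did not overlap. Lig1 rose by 0.24 ± 0.07, or 1.18-fold (limma adjusted p = 0.0445). At 24 h it read 9.13, 9.18 and 9.17 in thalidomide arrays and 8.98, 8.90 and 8.98 in control arrays, a difference of 0.21 ± 0.07 (adjusted p = 0.0719) without overlap, and in the mean over the 3 times it rose by 0.18 ± 0.04 (adjusted p = 0.00828). The 48 h call was lost in 12 of 18 fits that left out 1 array, with adjusted p up to 0.151 without control replicate 3 of 48 h, and it held after cyclic loess. Fen1, the nuclease that trims the fragments before ligation, had changes of 0.06 ± 0.11 and 0.10 ± 0.11 at 24 h and 48 h, with overlap.

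Of the 3 RPA genes, which coat single-stranded DNA, Rpa3 had the largest estimates and the widest spread. At 24 h it read 8.28, 8.83 and 8.79 in thalidomide arrays, against 9.18, 9.04 and 9.22 in control arrays, and at 48 h 8.89, 8.34 and 8.70 in thalidomide arrays, against 9.10, 8.96 and 8.97 in control arrays. The arrays did not overlap at either time, and 1 thalidomide array of each time lay well below the other two. The changes, -0.51 ± 0.15 and -0.36 ± 0.15, did not pass (limma adjusted p = 0.052 and 0.158). When its pair of probe sets was averaged instead of using the brighter one, Rpa3 fell at 24 h. Rpa1 and Rpa2 had changes of -0.08 ± 0.06 and -0.11 ± 0.07 at 24 h, and 0.04 ± 0.06 and -0.02 ± 0.07 at 48 h. Ribonucleotide reductase, the enzyme of Rrm1 and Rrm2, showed no call. Rrm1, its large subunit, read 10.08, 10.13 and 10.03 in thalidomide arrays and 10.13, 10.17 and 10.16 in control arrays at 24 h. These were apart by 0.08 ± 0.05, with the thalidomide arrays lower (95% interval -0.19 to 0.04). At 48 h Rrm1 had -0.06 ± 0.05, and at 72 h 0.00 ± 0.05. Rrm2, the radical-bearing subunit, had -0.10 ± 0.07, -0.06 ± 0.07 and 0.10 ± 0.07 at 24, 48 and 72 h. At 72 h it read 9.37, 9.25 and 9.47 in thalidomide arrays and 9.32, 9.31 and 9.16 in control arrays.

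Whether the effect at 72 h differed from that at 24 h was tested directly, and 0 of the 43 genes passed in limma (0.496% of all genes did), with a smallest adjusted p of 0.11 for Gins1. Without adjustment 11 of the 43 had a p under 0.05 (25.6%, against 14.3% of all genes), and all 11 differences were above 0. The median difference was 0.122 for the 43 genes and 0.018 for all genes, and was not computed for genes of similar signal. After cyclic loess it was 0.054 for the 43, with 15 of 43 below 0 and again 0 passing. Without thalidomide replicate 3 of 72 h it was 0.09, and 0 passed. The difference was 0.52 ± 0.15 for Gins1 and 0.30 ± 0.09 for Mcm10 (adjusted p = 0.11 and 0.122), the genes with the smallest p. With only genes at or above the median signal tested, 4 passed (Cdc45, Gins1, Gins4 and Mcm10), and with trend and robust options 3 did (Gins1, Gins4 and Pcna). No gene of the 43 passed limma for the effect at 48 h minus that at 24 h (0 had an unadjusted p under 0.05, against 7.67% of all genes, and 0.0% of all genes passed) or for 72 h minus 48 h (9, or 20.9%, had an unadjusted p under 0.05, all above 0, against 14.0% of all genes, and 0.0947% of all genes passed). The 72 h intervals of the 43 genes reached from -0.33 to 0.42, so changes of the size seen for Gins1 at 48 h lie outside the 72 h interval of Gins1, -0.26 to 0.18.

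Part of the machinery fell with time in control cultures. Between 24 h and 72 h, 10 of the 43 genes fell in controls (23.3%, against 14.3% of all genes) and 0 rose (13.1% of all genes rose): Mcm10, Pold2, Orc5, Gmnn, Orc1, Orc3, Lig1, Pcna, Orc2 and Rpa1. Among them 5 are origin recognition and licensing genes. In either direction 27.5% of all genes passed in limma. The median change was -0.073 for the 43 genes and -0.04 for all genes. Without adjustment 30.2% of the 43 had a p under 0.05, against 37.5% of all genes. For changes with time, here and under thalidomide, shares were not computed for genes of similar signal. Mcm10 fell by 0.51 ± 0.06, with control arrays of 8.45, 8.55 and 8.54 at 24 h, 8.24, 8.26 and 8.31 at 48 h and 8.06, 7.97 and 7.97 at 72 h (limma adjusted p = 7.83e-06). The 3 times did not overlap. Pold2, a delta subunit, read 8.71, 8.81 and 8.82 at 24 h, 8.35, 8.37 and 8.46 at 48 h and 8.33, 8.36 and 8.35 at 72 h in controls and fell by 0.43 ± 0.09 (adjusted p = 0.0011). Orc5, an ORC subunit, read 8.27, 8.31 and 8.32 at 24 h, 8.06, 7.98 and 8.10 at 48 h and 7.94, 7.87 and 7.86 at 72 h in controls and fell by 0.41 ± 0.07 (adjusted p = 0.000283). For both genes all arrays of 72 h lay below all arrays of 24 h. Gmnn read 7.43, 7.32 and 7.55 at 24 h, 7.24, 7.14 and 7.35 at 48 h and 7.05, 7.23 and 6.87 at 72 h in controls and fell by 0.38 ± 0.12. Orc1 read 7.22, 7.04 and 7.24 at 24 h, 7.16, 6.97 and 7.09 at 48 h and 6.89, 6.88 and 6.77 at 72 h in controls, a fall by 0.32 ± 0.08, and Orc3 read 8.63, 8.59 and 8.72 at 24 h, 8.50, 8.40 and 8.51 at 48 h and 8.40, 8.33 and 8.30 at 72 h, a fall by 0.31 ± 0.10 (adjusted p = 0.0237 for Gmnn, 0.00574 for Orc1 and 0.026 for Orc3). Single arrays decided 3 of these calls. Gmnn lost its call without control replicate 1 or 3 of 24 h or 72 h (adjusted p up to 0.12), and Orc2 and Orc3 lost theirs without control replicate 1 or 3 of 24 h or replicate 2 or 3 of 72 h (adjusted p up to 0.144 and 0.09). Rpa1, with -0.24 ± 0.06, did not pass when its probe sets were averaged (adjusted p = 0.218). Between 24 h and 48 h, 3 of the 43 fell in controls (Mcm10, Orc5 and Pold2, against 6.7% of all genes) and 0 rose (against 6.93%), and between 48 h and 72 h 1 fell (Mcm10, against 2.9%) and 0 rose (against 3.62%).

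In thalidomide cultures 12 of the 43 genes changed between 24 h and 72 h, 6 lower (14.0%, against 10.6% of all genes) and 6 higher (14.0%, against 14.4%). After cyclic loess 9 were lower (Rfc1, Rfc5 and Rpa1 added, against 11.1% of all genes) and 5 higher (Rrm2 lost, adjusted p = 0.0649, against 13.1%). Without thalidomide replicate 3 of 72 h also 9 were lower, but 3 higher (Cdc45, Gins2 and Gins4). Mcm10, Orc3, Orc5, Pold2 and Lig1 fell in both arms, and Pold1 fell under thalidomide. Cdc45, Gins2, Prim1, Gins4, Rrm2 and Mcm7 rose under thalidomide. Cdc45 rose by 0.37 ± 0.06, with thalidomide arrays of 7.43, 7.53 and 7.51 at 24 h, 7.70, 7.66 and 7.75 at 48 h and 7.87, 7.78 and 7.92 at 72 h (limma adjusted p = 0.000284). The times did not overlap. In control cultures the same gene changed by 0.07 ± 0.06 and did not pass (adjusted p = 0.409). Gins2, Prim1 and Gins4 rose by 0.30, 0.29 and 0.27 under thalidomide (SE 0.07, 0.09 and 0.07), against changes of 0.03, -0.06 and -0.05 in control. The 24 h and 72 h thalidomide arrays used here are the same ones as in the comparisons with control, and the difference between the arms is the test of effects given above, which 0 genes passed. The re-analysis tag is on the thalidomide arrays of 24 h and not on those of 72 h. Gins1 did not pass in either arm, with 0.25 ± 0.10 under thalidomide and -0.27 ± 0.10 in control (adjusted p = 0.0936 and 0.0641). Single arrays of the compared groups decided 7 of the 12 calls. Leaving out thalidomide arrays of 24 h ended the calls of Pold1 and Prim1 (replicate 1, adjusted p = 0.116 and 0.112), of Mcm10, Mcm7, Orc3 and Rrm2 (replicate 2, up to 0.0753) and of Mcm10, Orc3 and Rrm2 (replicate 3, up to 0.13). Leaving out thalidomide arrays of 72 h ended those of Gins4, Orc3, Prim1 and Rrm2 (replicate 1, up to 0.119), of Mcm10, Orc3 and Pold1 (replicate 2, up to 0.0906) and of Mcm7, Prim1 and Rrm2 (replicate 3, up to 0.138). The calls of Cdc45, Gins2, Lig1, Orc5 and Pold2 held in all 18 such fits. The count of 12 fell to 5 (Cdc45, Gins2, Lig1, Orc5 and Pold2) when only the thalidomide groups of 24 h and 72 h were fitted. Between 24 h and 48 h Cdc45 rose and Pold2 fell under thalidomide (1 of 43 each way, against 5.72% of all genes higher and 4.36% lower). Between 48 h and 72 h Gins2, Gins4 and Rrm2 rose and Rfc5, Pold1 and Lig1 fell (3 of 43 each way, against 6.42% higher and 3.76% lower).

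**Figure D3:**
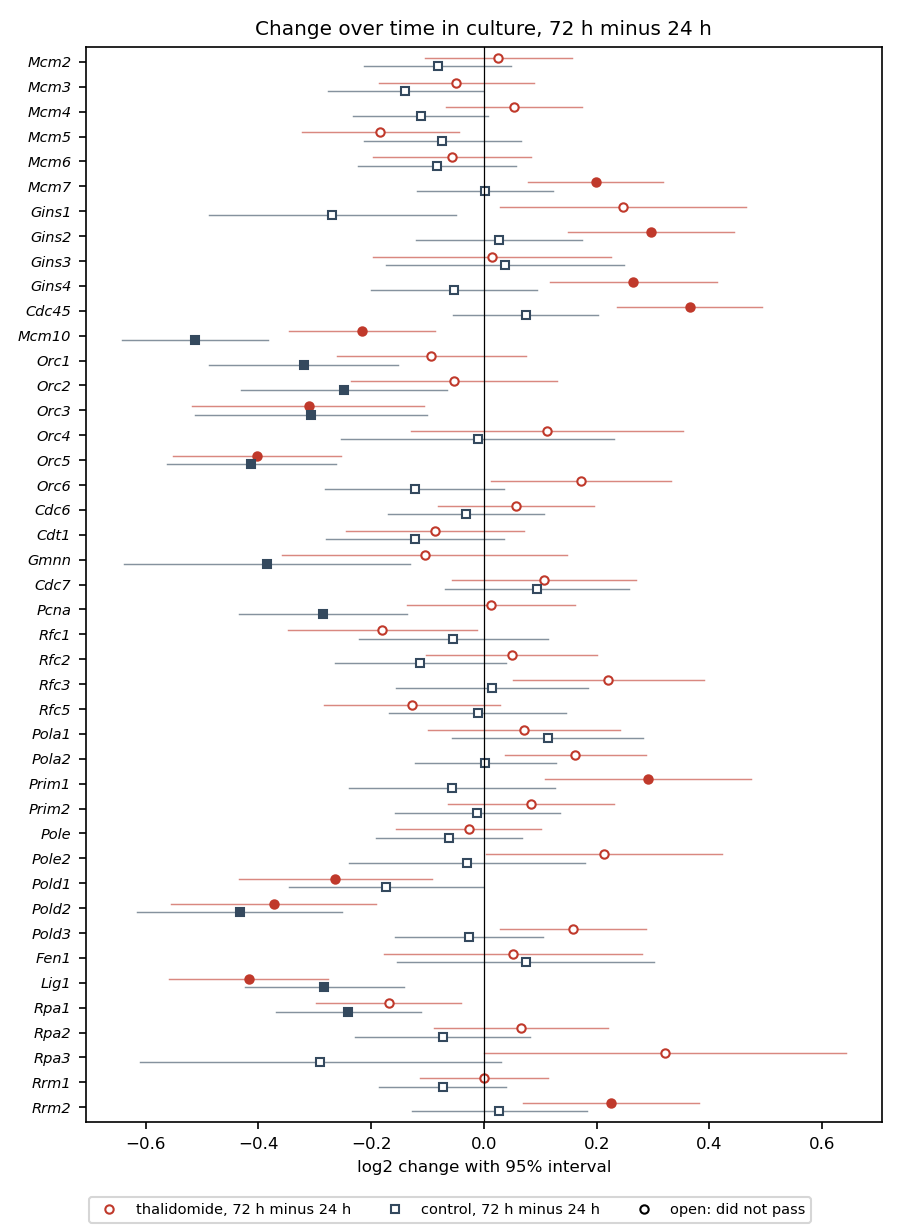
Log2 change between 24 h and 72 h (horizontal axis, with 95% intervals, 3 arrays per time) of the 43 replication genes in thalidomide cultures (red circles) and control cultures (dark squares). Filled symbols passed the test. The helicase genes Gins2, Gins4 and Cdc45 are filled on the right under thalidomide and open near 0 in control, while Orc3, Orc5, Pold2 and Lig1 are filled on the left in both.

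Around the machinery, 7 lists of neighbouring pathways held 128 measured genes, of which 21 fell at 24 h (16.4%, against 5.43% of all genes and 13.3% of the 25% with the highest signal) and 1 rose. At 48 h 6 fell (4.69%, against 4.23% and 9.41%) and 1 rose, and at 72 h 0 passed. After cyclic loess 8 of the 22 calls at 24 h passed (Mcm8, Rnaseh2a, Ctc1, Asf1a, Myc, Rad18, Mad2l1 and H2bc12) and 4 of the 7 at 48 h (Ctc1, Asf1b, Cdkn1a and H2bc12). In fits that left out 1 array, 6 of the 22 held throughout (Ctc1, H2bc12, Mad2l1, Myc, Rad18 and Rnaseh2a) and 3 of the 7 (Asf1b, Cdkn1a and H2bc12). When only the compared groups were fitted, H2bc12 alone of these calls passed, at 24 h and at 48 h. Of 26 measured other replication factors, 4 fell and 1 rose at 24 h (medians -0.09 at 24 h and -0.017 at 48 h, and -0.015 and 0.014 after cyclic loess). Mcm8, a helicase of repair, fell by 0.44 ± 0.10, Rnaseh2a, which removes RNA from DNA, by 0.31 ± 0.06 and Fam111a by 0.30 ± 0.08 at 24 h, the last with adjusted p = 0.0638 after cyclic loess. Ctc1, of the CST complex at telomeres, rose at 24 h and 48 h, by 0.30 ± 0.06 and 0.29 ± 0.06 (limma adjusted p = 0.00736 and 0.012). Ticrr, needed to load Cdc45, fell by 0.21 ± 0.05 at 48 h (adjusted p = 0.127 after cyclic loess). Wdhd1 passed as higher at 48 h only after cyclic loess. Of 13 nucleotide supply genes, 4 fell at 24 h (Shmt1 and Dctd of thymidylate supply, Paics of purine synthesis and Samhd1, which degrades deoxynucleotides, by 0.27, 0.26, 0.24 and 0.22), and 0 passed at 48 h (medians -0.142 and -0.075). All 4 of these calls were lost after cyclic loess (adjusted p from 0.0953 for Paics to 0.231 for Dctd, medians -0.095 and -0.045), and each was lost in at least 1 fit that left out 1 array. Of 11 genes that copy chromatin (medians -0.009 and -0.065, and 0.048 and -0.029 after cyclic loess), Asf1a and Asf1b, histone chaperones, fell at 24 h by 0.40 ± 0.09 and 0.29 ± 0.07, and Asf1b by 0.35 ± 0.07 at 48 h. The 24 h call of Asf1b was lost after cyclic loess (adjusted p = 0.11).

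Of 32 genes of G1/S control, 5 fell at 24 h and 2 at 48 h, with median changes of -0.107 and -0.077 (-0.022 and -0.042 after cyclic loess). Myc, a driver of growth, fell by 0.46 ± 0.10, E2f4, a repressor E2F, by 0.32 ± 0.07, Cks1b, a partner of cyclin-dependent kinases, by 0.23 ± 0.06 and Fbxo5, an inhibitor of the anaphase-promoting complex, by 0.31 ± 0.09 at 24 h. Cyclic loess ended the calls of E2f4, Cks1b and Fbxo5 (adjusted p = 0.0575, 0.282 and 0.104). It also made Mycn, of the same list, pass as higher at 24 h. At 48 h E2f4 and Cdkn1a, the gene of the cyclin-dependent kinase inhibitor p21, fell by 0.27 ± 0.07 and 0.51 ± 0.10 (limma adjusted p = 0.0308 and 0.00689, and 0.0758 for E2f4 after cyclic loess). Cdkn1a had also fallen at 24 h, by 0.34 ± 0.10 (limma adjusted p = 0.0408), a call lost after cyclic loess (adjusted p = 0.155). Of 17 checkpoint genes (medians -0.141 and -0.061, and -0.05 and -0.005 after cyclic loess), Rad18, a ubiquitin ligase that marks PCNA, fell at 24 h and 48 h, by 0.41 ± 0.08 and 0.31 ± 0.08, and the kinase gene Chek1 by 0.27 ± 0.07 at 24 h. The calls of Chek1 at 24 h and Rad18 at 48 h were lost after cyclic loess (adjusted p = 0.11 and 0.0582). Of 23 mitosis genes, the spindle checkpoint gene Mad2l1 and the kinase genes Cdk1 and Aurkb fell at 24 h, by 0.45, 0.35 and 0.32, and 0 passed at 48 h (medians -0.074 and -0.025, and -0.01 and 0.017 after cyclic loess). After cyclic loess Cdk1 and Aurkb did not pass (adjusted p = 0.0883 and 0.134), and Incenp passed as higher at 48 h. Of 15 replication histone genes, 6 were measured and 1, H2bc12, passed (medians of the 6 were 0.044 and -0.205). It read 9.35, 8.98 and 9.04 in thalidomide arrays and 10.15, 10.16 and 10.26 in control arrays at 24 h, and 8.96, 8.84 and 8.96 in thalidomide arrays and 10.08, 10.06 and 10.14 in control arrays at 48 h. The groups did not overlap at either time. H2bc12 fell by 1.07 ± 0.10 and 1.17 ± 0.10 (adjusted p = 7.47e-05 and 3.97e-05), and its effect at 72 h was 0.18 ± 0.10. Histone genes differ little in sequence, and how such probe sets share signal is not known here.

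**Figure D4:**
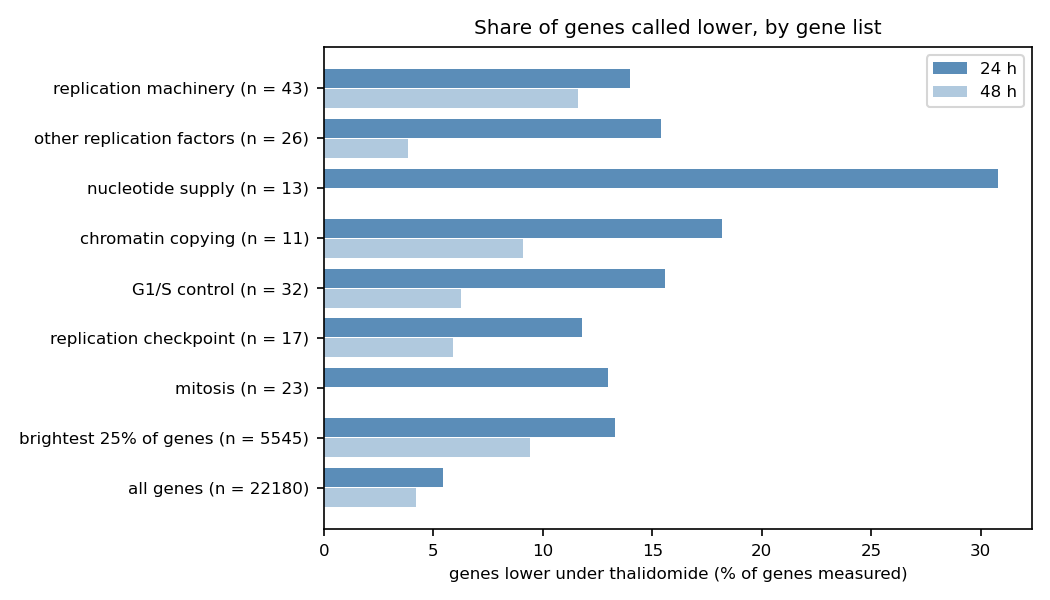
Share of measured genes that fell under thalidomide (percent, horizontal axis, bars from 0) at 24 h (dark) and 48 h (light), for the replication machinery, 6 lists of neighbouring pathways, the 25% of genes with the highest mean signal and all genes. The 14.0% of replication genes at 24 h stands beside 13.3% of the genes with the highest signal and 5.43% of all genes.

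Markers of other cell states were read in the same arrays. At 24 h 3 of 8 pluripotency genes had a change below 0 (median 0.062), and 1 fell, Tdgf1 (limma adjusted p = 0.0432), a call lost after cyclic loess. The list summed to 2268 to 2587 linear signal units in thalidomide arrays and 3292 to 3718 in control arrays at 24 h, of which Tdgf1 alone held 57.0% to 59.1% in thalidomide arrays and 65.8% to 68.4% in control arrays. At 48 h the sums were 873.7 to 1097 in thalidomide arrays and 889.8 to 993.4 in control arrays. The 5 measured genes of primitive streak and mesoderm, all with a change below 0 and none passing at 24 h, summed to 1673 to 1974 in thalidomide arrays and 2225 to 2446 in control arrays, and at 48 h to 465.5 to 592.6 in thalidomide arrays and 510.8 to 681.2 in control arrays. Of 7 heart muscle genes 1 fell at 48 h, Myl7 (adjusted p = 0.0482, lost after cyclic loess), with sums of 665.0 to 781.7 in thalidomide arrays and 662.6 to 905.7 in control arrays. None of the endothelial and blood, neural and extraembryonic endoderm markers passed at 24 h or 48 h. At 72 h 0 markers passed, and the linear sums of 4 lists did not overlap. Tnnt2 held 39.2% to 47.5% of the heart muscle sum in thalidomide arrays and 45.9% to 48.3% in control arrays. Ttr held 53.5% to 59.7% and 59.4% to 62.4% of the extraembryonic endoderm sum. The largest part of the endothelial and blood sum was Kdr in thalidomide arrays (42.0% to 44.4%) and Cdh5 in control arrays (41.0% to 45.7%). The neural sum was led by Sox1 (28.3% to 34.8%) and Tubb3 (27.7% to 29.1%), in the same order. Heart muscle genes summed to 1063 to 2535 in thalidomide arrays and 3707 to 3774 in control arrays, and endothelial and blood genes to 603.9 to 1197 in thalidomide arrays and 1375 to 1594 in control arrays. Neural genes summed to 382.3 to 589.8 in thalidomide arrays and 244.1 to 336.2 in control arrays, and extraembryonic endoderm genes to 1696 to 2332 in thalidomide arrays and 2386 to 3142 in control arrays. The part of these markers in the values of the replication genes was not tested.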

How the data were processed

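The labels describe total RNA on 18 Affymetrix arrays. The authors deposited 1 log2 signal per probe set and array, and the submitters' processing notes name RMA (robust multi-array average) and Affymetrix Expression Console 1.3. A genome build was not given in the sources used here. Array medians ran from 5.367 to 5.462, and no further normalization was applied. Of 41345 probe sets, 23521 had 1 gene symbol, which gave 22180 genes (the probe set of highest mean for 1082 genes with several). limma 3.58.1 in R 4.3.3 fitted 1 mean per group, two-sided, with Benjamini-Hochberg adjustment over all genes, and was checked on simulated data. Intervals are 95%, and the number of arrays limits precision. The members and all lists were chosen with earlier results of these data known. The rule named, with array values, the members that passed under exposure (at 72 h the 3 of smallest p), the 6 with the largest control change each way, the 2 of smallest p in the difference of effects, the member of highest signal in each of 8 functional groups and up to 4 called genes per pathway list. Values of other members, such as Mcm7, Pold1 and Mcm4, were added after they were seen. Alternatives were averaged probe sets, cyclic loess, a median-signal filter, array weights, trend and robust options, a replicate block, fits on the compared groups only and leaving out each array.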

Additional observations from a re-analysis of the deposited data

How the results depend on the processing

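Over 7 alternatives and 18 fits without 1 array, no called change of a named gene reversed its direction: of the values for 71 such changes, 1472 still passed and 295 did not, and of the counts 132 stayed within 1.5 times and 18 moved. The mean effect and the pathway genes were added to these alternatives after seeing the data. At 24 h the count of 6 became 3 after cyclic loess, 12 with only genes at or above the median signal tested, 12 with trend and robust options and 1 (Gins1) when only the 2 groups compared were fitted. At 48 h the 6 became 11 with the median-signal filter, 12 with trend and robust options and 1 (Gins1) with only the groups compared. For the thalidomide course the 12 became 5 with only the groups compared, and for the difference of effects the 0 became 4 with the filter and 3 with trend and robust options. Without 1 array, the counts ran from 2 to 6 at 24 h (2 without thalidomide replicate 1 of 24 h, and 3 without control replicate 1 or 3), from 2 to 7 at 48 h (2 without thalidomide replicate 3 of 48 h, and 3 without control replicate 1, 2 or 3 or thalidomide replicate 2 of 48 h), from 7 to 11 in the control course and from 9 to 13 in the thalidomide course, and stayed at 0 at 72 h and for the difference of effects. The filter reduces the number of genes over which p is adjusted, and limma was also refitted on those genes alone. The fits on compared groups have fewer arrays. The cause of the moves was not tested. With a replicate block the counts were 5, 4 and 0 at 24, 48 and 72 h, 9 in the control course, 12 in the thalidomide course and 0 for the difference. The block ended the calls of Mcm10 at 24 h, of Orc1 and Lig1 at 48 h, of Orc2 in the control course, of Cdc45 and Mcm7 in the mean effect (adjusted p = 0.0501 and 0.0598) and, of the pathway genes, of Dctd, Fam111a, Fbxo5, Paics, Samhd1 and Tipin at 24 h. No pairing of samples by replicate number was seen. Over 9 same-numbered pairs the correlation of deviations from the group means ran from -0.14 to 0.118, and 1 exceeded 0.1. In 3 of the pairs the thalidomide array correlated best with the control of its own number. With 3 arrays per group these values cannot show whether same-numbered arrays came from a shared culture.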
